A study of Mus musculus with 6 samples.

Results

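The genes described here mark the 2 cell layers of the small blood vessels of the stria vascularis, the capillary endothelium and the mural cells (pericytes and smooth muscle) that wrap it. Of 36 listed genes, 27 endothelial and 9 mural, all 36 were measured, among 18193 genes in all. A gene was taken where a probe set of the array is annotated with its symbol alone, and where several qualified the one with the highest mean level was used. The samples were RNA of the mouse stria vascularis, the endolymph-making epithelium on the side wall of the cochlea. There were 3 pools labelled wild type and 3 labelled Errb mutant (a conditional knock-out of Esrrb, which encodes estrogen-related receptor beta). Each pool came from 10 mice and went on 1 Affymetrix array. Sample titles name the stria vascularis as the tissue, although the series design mentions inner ears. The labels name neither a Cre driver nor a strain, and they state an age, postnatal day 3 to 5, for wild-type pool 1 alone. The comparison asked which transcripts differ between the genotypes in this tissue, and arrays were paired by replicate number.

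The capillaries of the stria form a blood-labyrinth barrier: their endothelial cells are sealed by tight junctions, carry selective transporters and are surrounded by many pericytes and by perivascular macrophages. Endothelial cells grow and survive through receptors for vascular endothelial growth factor and for angiopoietins, and they recruit pericytes by releasing platelet-derived growth factor B, whose receptor beta sits on the mural cells. The potassium-secreting cells of the stria depend on this vessel network for oxygen and for the ionic composition of the fluid between the layers.

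Levels are on the log2 scale, 1 value per probe set and array, and every difference is mutant minus wild type on that scale, as the mean ± SD of the 3 pairs (n = 3). In pair 1, 32.1% of genes had exactly the same value on both arrays, against 2.25% in pair 2 and 2.58% in pair 3, and array medians were 6.07 to 6.08, 6.94 to 6.95 and 6.38 to 6.42 in the 3 pairs. The Gapdh control probe sets of the array differed between their 3' and 5' ends by 2.28 and 2.57 in pair 1 (wild type, mutant), by 0.21 and 0.16 in pair 2 and by -0.04 and 0.51 in pair 3. The beta-actin controls also showed their widest gaps there, at 1.01 (wild type) and 1.35 (mutant). Pair 1 therefore stood apart in its ties and in these control gaps. What caused this was not tested, nor was the part of pair 1 in the differences below. The best expressed probe set of Esrrb measured 9.68, 10.60 and 9.96 in wild-type pools 1 to 3 and 9.76, 10.28 and 9.98 in the mutant pools. Its position relative to the deleted part is unknown here, so it checks nothing about the labels.

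Most markers of both vessel cell types lay above the array median. Of the 36 genes, 27 lay above it on all 6 arrays and 5 lay below it on all 6, namely Vwf, Esm1, Angpt2, Myh11 and Cnn1. The best expressed probe set of a gene is set here against the median of all probe sets, which favours places above it. The same share over all genes was not computed. Esm1 and Cnn1 were below the lower quartile of all probe sets on every array, and the files give no signal over background. The genes do not separate strial capillaries from the vessels of the adjoining spiral ligament. In bulk tissue, fewer vessel cells and less RNA per vessel cell cannot be told apart. None of the 36 genes lies on chromosome 12, which carries Esrrb.

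Endothelial genes had slightly lower values in the mutant, by little and in many genes at once. The members were chosen with earlier results of these data known, so the counts below are not an independent check. All 27 of 27 had a mean difference below 0 (26 with the arrays median-centred or quantile-normalized, since Mfsd2a came out at 0.0059 and 0.00055). In the background 48.7% of all genes had one, and 43.9% of the 12864 genes with a mean level of at least 6. The median gene differed by -0.12, against 0.004 over all genes, and the medians of the 27 were -0.21, -0.11 and -0.16 in pairs 1 to 3. In all 3 pairs 10 of the 27 were lower (37.0% of them), against 9.03% of all genes and 10.4% of those with a mean of at least 6, and none was higher in all 3, against 12.9%. Lower in both other pairs were 10 of the 27 without pair 1, 15 without pair 2 and 19 without pair 3, against 26.2%, 15.2% and 17.1% of all genes. The 32.1% of all genes tied at exactly 0 in pair 1 count as neither lower nor higher. These ties hold down every such share of all genes that takes in pair 1. The 10 were Pecam1, Cldn5, Esam, Egfl7, Sox18, Mmrn2, Ptprb, Nos3, Vwf and Apln.

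No endothelial or mural gene passed singly. With limma, the replicate number as a block and Benjamini-Hochberg adjustment over 45037 probe sets, 0 of 36 had an adjusted p under 0.05, and 0.148% of all genes did. At an unadjusted p under 0.05 there were 6 endothelial genes, all lower, and 0 mural genes, where 3.31% of all genes were lower at that p and 4.04% higher. Without the block 0 of the 36 had an adjusted p under 0.05, against 0.0055% of all genes, and 0 of the 36 had an unadjusted p under 0.05, against 0.308%. The wild-type and mutant ranges overlapped for all 36 genes, and 1.07% of all genes had ranges that did not. In the paired fit the 95% intervals of all 36 genes lay within 1 of 0 on the log2 scale, and those of 29 within 0.5. These intervals reflect the spread among the 3 pairs, which may be technical, and do not bound the difference between mice. The SD among wild-type pools was wider than that of the pair differences for all of the 36 genes but Cdh5, Cldn5, Abcb1a and Angpt2. Examples are 1.53 against 0.32 for Slco1c1 and 1.16 against 0.01 for Pecam1. The narrow intervals thus depend on the pairing.

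**Figure D1:**
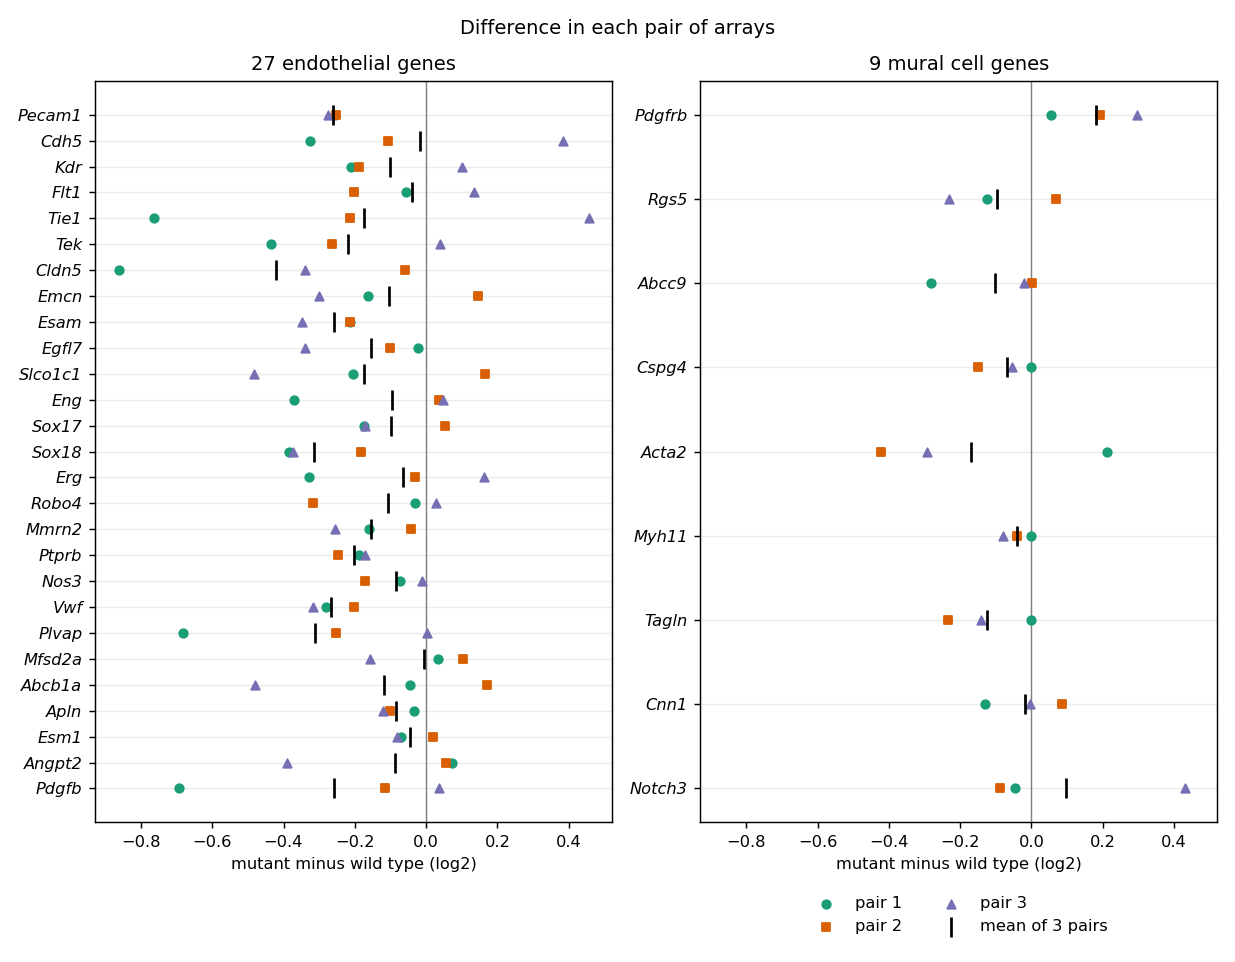
Difference between mutant and wild type (log2, horizontal axis) in each of the 3 pairs of arrays for 27 endothelial genes (left) and 9 mural cell genes (right). Symbols are the pairs and the black bar is their mean. The endothelial means all lie left of 0 (26 of 27 with arrays median-centred or quantile-normalized), while Tie1, Cldn5, Plvap and Pdgfb have their furthest point in pair 1, at -0.76, -0.86, -0.68 and -0.69.

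The pairs did not contribute alike. In pair 1, 25 of the 27 endothelial genes were lower, in pair 2, 19 and in pair 3, 17, against 33.5%, 48.4% and 45.7% of all genes. The 33.5% in pair 1 is held down by ties, since 6103 of all genes were lower, 6249 higher and 5841 at exactly 0. Among genes with a mean of at least 6, 5310 were lower, 4331 higher and 3223 at exactly 0. No endothelial gene was at exactly 0 in pair 1. The largest of a gene's 3 differences came from pair 1 in 10 genes, from pair 2 in 4 and from pair 3 in 13. Without pair 2 the median gene differed by -0.18. Without pair 1, the pair with the wide Gapdh gap, 23 of 27 had a mean below 0 and the median gene differed by -0.11, while Cdh5, Tie1, Eng and Erg turned above 0 (0.14, 0.12, 0.04 and 0.07).

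Adhesion and junction genes were lower in all 3 pairs in 3 of 5, against 9.03% of all genes. Pecam1, the adhesion molecule of endothelial cell contacts, measured 5.68, 7.77 and 7.59 in wild-type pools 1 to 3 and 5.43, 7.51 and 7.31 in the mutant pools. Each mutant pool was lower than its partner by nearly the same amount, whereas pool 1 of either genotype lay well below the rest. The difference was -0.26 ± 0.01 (95% interval -0.43 to -0.10), 1.20-fold lower, with adjusted p = 0.454. Esam, another cell adhesion molecule of endothelial junctions, measured 7.83, 9.32 and 9.09 in wild type and 7.61, 9.10 and 8.74 in the mutant, a difference of -0.26 ± 0.08 (adjusted p = 0.506).

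Cldn5, the main claudin of barrier endothelium, had the largest difference of the 36 genes, with the widest gap in pair 1. It measured 8.78, 9.48 and 9.44 in wild type and 7.92, 9.42 and 9.10 in the mutant, so that pair 2 was nearly equal. The difference was -0.42 ± 0.41 (-0.82 to -0.02, adjusted p = 0.689), and without pair 1 it was -0.20. Cdh5, the vascular endothelial cadherin, differed by -0.32, -0.11 and 0.38 in the 3 pairs and had a mean of -0.02 ± 0.36. Emcn, a sialomucin of capillary and venous endothelium, differed by -0.16, 0.15 and -0.30. These 2 genes had pairs on both sides of 0.

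Growth factor receptors and their partners were mixed between pairs. In pair 1 all 7 were lower and in pair 2, 6 of 7, but in pair 3 1 of 7, and their medians were -0.21, -0.21 and 0.05. Ptprb, the phosphatase that acts on the angiopoietin receptor and on cadherin junctions, was the one gene of the 7 lower in all 3 pairs. It measured 8.21, 8.31 and 8.55 in wild type and 8.02, 8.06 and 8.38 in the mutant, a difference of -0.20 ± 0.04 (adjusted p = 0.606). The 2 genotypes overlapped, since wild-type pools 1 and 2 lay below mutant pool 3.

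Kdr, the main signalling receptor for vascular endothelial growth factor, differed by -0.21, -0.19 and 0.10, and Flt1, which also binds the factor and acts largely as a decoy, by -0.06, -0.20 and 0.13. Tek, the angiopoietin receptor, differed by -0.43, -0.26 and 0.04. Its partner Tie1 had the widest spread of all 36 genes, with -0.76, -0.21 and 0.46 (SD 0.61). For these 4 receptor genes pair 3 thus ran against the other pairs. Eng, a co-receptor of the transforming growth factor beta family, differed by -0.37, 0.04 and 0.05, and Robo4, the endothelial roundabout receptor, by -0.03, -0.32 and 0.03.

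Of the transcription factors, Sox18 was lower in all 3 pairs. It measured 8.03, 8.47 and 8.43 in wild type and 7.64, 8.29 and 8.05 in the mutant, and all mutant pools lay below their partners. The difference was -0.31 ± 0.11 (-0.51 to -0.12), 1.24-fold lower, and its adjusted p of 0.447 was the smallest of the 36 genes. Sox17, which acts with Sox18 in arterial and vessel development, differed by -0.17, 0.05 and -0.17, and a less expressed probe set of Sox17 by -0.78, 0 and -0.52. Erg, the ETS factor that keeps up endothelial identity, differed by -0.33, -0.03 and 0.16.

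**Figure D2:**
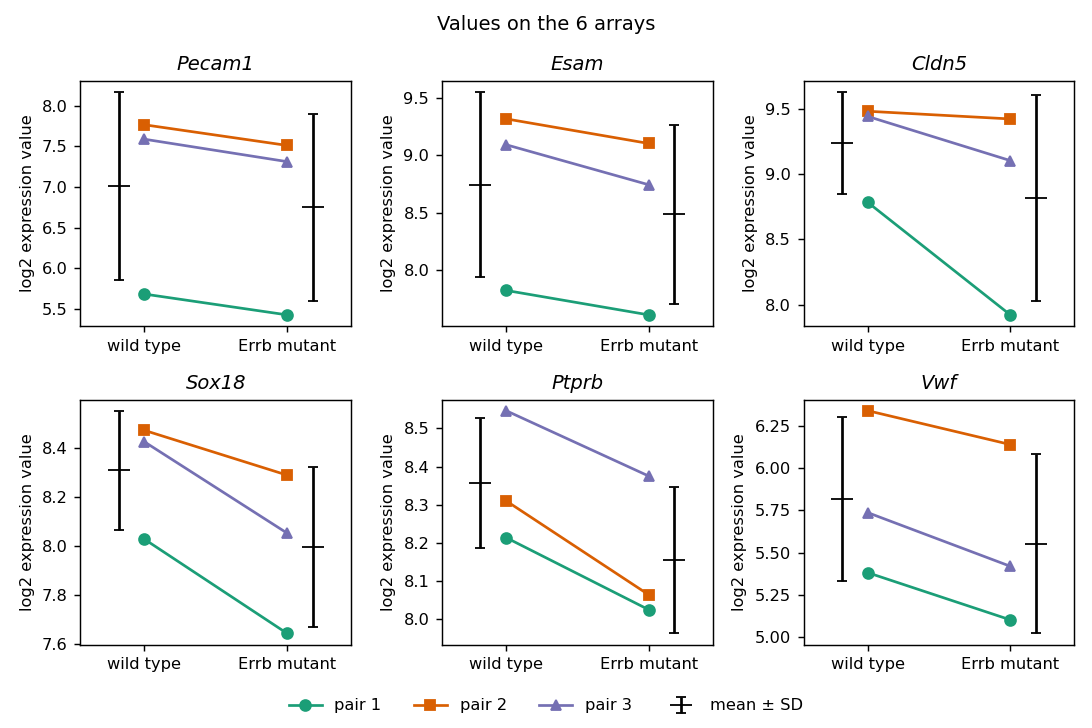
Log2 expression values on each array (vertical axis, a separate scale for each gene that does not start at 0) for the 6 endothelial genes with an unadjusted p under 0.05, chosen for those values. Lines join the 2 arrays of a pair, and black bars are the genotype mean ± SD (n = 3). Every line slopes down toward the mutant. With each array's median subtracted, the range between pair means exceeds the genotype difference for all of these genes but Vwf.

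Genes of barrier and permeability had no common direction across pairs. Slco1c1, the thyroid hormone and organic anion transporter of barrier capillaries, measured 7.22, 9.31 and 10.20 in wild type and 7.01, 9.48 and 9.72 in the mutant, a difference of -0.17 ± 0.32. Its level thus set the pools apart far more than the genotypes. Mfsd2a, a lysolipid transporter that keeps vesicle traffic low in barrier endothelium, differed by 0.03, 0.10 and -0.16 and had the smallest mean difference of the 36 (-0.007). Abcb1a, the drug efflux pump, differed by -0.05, 0.17 and -0.48. Plvap, which forms the diaphragms of leaky endothelium and is low in mature barrier vessels, differed by -0.68, -0.25 and 0.003.

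The 4 secreted and flow-related genes were lower in all 3 pairs in 4 of 4, against 9.03% of all genes. Vwf, the clotting factor stored by endothelial cells, measured 5.38, 6.34 and 5.74 in wild type and 5.10, 6.14 and 5.42 in the mutant. All 3 mutant pools were lower than their partners, and the difference was -0.27 ± 0.06 (-0.44 to -0.09, adjusted p = 0.468). Egfl7, a secreted matrix protein of endothelium, differed by -0.02, -0.10 and -0.34, and its 4 probe sets differed by -0.15, -0.13, -0.16 and -0.19. Mmrn2, an endothelial matrix protein, differed by -0.16, -0.04 and -0.26, and Nos3, the nitric oxide synthase of endothelium, by -0.07, -0.17 and -0.01.

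Genes of sprouting and vessel ligands differed least among the endothelial groups, with a median gene of -0.09. Apln, the apelin peptide of growing vessel tips, differed by -0.03, -0.10 and -0.12. Esm1, a tip cell proteoglycan, differed by -0.07, 0.02 and -0.08 at values below the lower quartile. Angpt2, a context-dependent ligand of Tek, differed by 0.07, 0.06 and -0.39. Pdgfb, the ligand that draws pericytes to the vessel, differed by -0.69, -0.11 and 0.04, a mean of -0.26 ± 0.39 that was -0.04 without pair 1.

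Probe sets of the same gene mostly gave the same sign. The 27 endothelial genes had 45 probe sets, of which 41 had a mean difference below 0, and none passed. Of 11 endothelial genes with several probe sets, 7 had 1 sign throughout. The second probe set of Abcb1a differed by -0.27 and that of Cdh5 by -0.20, further from 0 than the better expressed ones. Mmrn2, Flt1, Eng and Angpt2 each had a less expressed probe set just above 0, at 0.006, 0.010, 0.002 and 0.003. That of Mmrn2 differed by -0.18, 0 and 0.20 in the 3 pairs.

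The promoters of the members were searched for shared letters, and a link of these letters to the differences was not tested. The promoters are 300-base windows, 250 before to 50 after the start, from RefSeq (GRCm38.p6), and 15 of 27 endothelial and 6 of 9 mural genes matched. The ETS core AGGAAG, the core bound by Erg and its relatives, was found on either strand in 11 of 19 endothelial promoters (57.9%), from 10 genes, in 0 of 6 mural promoters and in 35.4% of 32851 promoters in all. The estrogen-related receptor element TCAAGGTCA was in 0 of 19, 0 of 6 and 0.423% of them. The CArG box, bound by serum response factor, was in 0 of 19, 0 of 6 and 1.63%. The 250 bases before the start of 3 genes with 2 matches each are shown, 5′ to 3′ on the strand of the gene, with AGGAAG or its complement CTTCCT in capitals. They lie at chr3:137340828-137341077 (plus strand, Emcn), chr2:32646345-32646594 (plus strand, Eng) and chr5:147726012-147726261 (minus strand, Flt1).
Emcn: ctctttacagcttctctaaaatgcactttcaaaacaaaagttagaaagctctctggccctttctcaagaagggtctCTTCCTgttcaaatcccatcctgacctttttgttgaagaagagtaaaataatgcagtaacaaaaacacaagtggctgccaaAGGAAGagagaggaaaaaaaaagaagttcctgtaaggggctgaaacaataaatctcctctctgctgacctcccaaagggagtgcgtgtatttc
Eng: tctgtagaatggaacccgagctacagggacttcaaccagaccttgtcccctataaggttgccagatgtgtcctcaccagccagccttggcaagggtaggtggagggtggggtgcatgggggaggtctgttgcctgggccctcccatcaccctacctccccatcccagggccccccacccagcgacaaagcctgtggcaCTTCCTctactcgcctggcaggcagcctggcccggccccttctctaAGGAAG
Flt1: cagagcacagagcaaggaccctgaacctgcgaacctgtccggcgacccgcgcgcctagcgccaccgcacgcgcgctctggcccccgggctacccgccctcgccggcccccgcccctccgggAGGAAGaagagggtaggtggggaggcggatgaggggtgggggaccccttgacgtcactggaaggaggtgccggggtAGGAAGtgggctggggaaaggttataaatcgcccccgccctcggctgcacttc
In Emcn the matches start 174 and 93 bases before the start, in Eng 52 and 6 and in Flt1 129 and 53. The mean differences of these 3 genes were -0.11, -0.10 and -0.04, and each had pairs on both sides of 0. Of the genes lower in all pairs, Pecam1, Esam, Sox18, Mmrn2, Ptprb, Nos3 and Vwf had no promoter to search. Egfl7 and Apln had AGGAAG, and Cldn5 did not.

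Mural cell genes stood closer to the background than endothelial genes. Of 9, 7 had a mean difference below 0, 0 were lower in all 3 pairs and 1 was higher in all 3. The shares of all genes were 48.7%, 9.03% and 12.9%. After quantile normalization or median centring 3 of the 9 were lower in all pairs. With median centring these were Cspg4, Myh11 and Tagln. Their ties in pair 1 became lower values, because the array median there was 6.083 in the mutant and 6.070 in wild type. All genes tied in pair 1 shift in the same way, so 9.03% is no background for that count. Without pair 1, 2 or 3, the count lower in both other pairs was 4, 3 and 1. The median gene differed by -0.07, and the medians in pairs 1 to 3 were 0, -0.04 and -0.05. In pair 1 Cspg4, Myh11 and Tagln had a difference of exactly 0. The difference between endothelial and mural genes was not tested.

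Among pericyte genes, Pdgfrb, the receptor for platelet-derived growth factor B, was the one member of the 36 higher in all 3 pairs. It measured 9.89, 10.48 and 10.07 in wild type and 9.95, 10.67 and 10.37 in the mutant, a difference of 0.18 ± 0.12 (-0.015 to 0.38, adjusted p = 0.723). Its second probe set differed by -0.18, 0.10 and 0.27, and fibroblasts of the lateral wall also express this gene. Notch3, the Notch receptor of mural cells, differed by -0.05, -0.09 and 0.43. Abcc9, the sulfonylurea receptor subunit of pericyte potassium channels, differed by -0.28, 0.0009 and -0.02, and Cspg4, the proteoglycan NG2, by 0, -0.15 and -0.05.

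Rgs5, a regulator of G protein signalling used as a pericyte marker, gave a different size with each probe set. The best expressed one measured 10.38, 11.38 and 11.13 in wild type and 10.25, 11.45 and 10.90 in the mutant, a difference of -0.10 ± 0.15 (adjusted p = 0.781). The other 3 differed by -0.26, -0.58 and -0.32. The probe set at -0.58 measured 6.31, 9.90 and 9.62 against 5.89, 9.41 and 8.78 and was lower in all pairs (adjusted p = 0.281). No probe set of a mural gene passed, and 15 of 20 had a mean difference below 0.

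Contractile genes of smooth muscle differed little. Acta2, the smooth muscle actin, measured 7.28, 8.22 and 7.80 in wild type and 7.49, 7.80 and 7.51 in the mutant, so that pair 1 ran against the others (-0.17 ± 0.33). Tagln, an actin-binding protein of smooth muscle, differed by 0, -0.23 and -0.14. Myh11, the smooth muscle myosin heavy chain, differed by 0, -0.04 and -0.08, and Cnn1, a calponin, by -0.13, 0.09 and -0.0053. Myh11 and Cnn1 lay below the array median throughout.

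**Figure D3:**
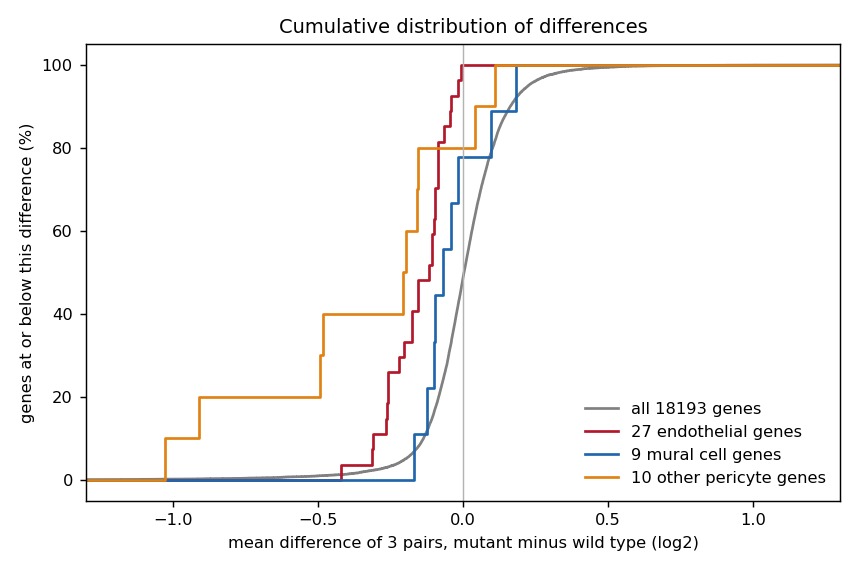
Share of genes (vertical axis, percent) at or below a given mean difference (horizontal axis, mutant minus wild type, log2, shown from -1.3 to 1.3) for all genes, 27 endothelial, 9 mural and 10 other pericyte genes. The endothelial curve reaches 100% at 0 (26 of 27 with arrays median-centred or quantile-normalized), where the curve of all genes stands at 48.7% below 0, and the other pericyte genes reach furthest left, to -1.03.

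A second set of 10 pericyte genes outside the 36 differed more than the mural members did, and 1 of them passed. This set was listed with earlier results of these data known, so it is not an independent check. Higd1b, a mitochondrial membrane protein gene used as a pericyte marker, fell in the mutant. It measured 5.76, 6.36 and 6.38 in wild-type pools and 4.71, 5.46 and 5.25 in mutant pools. All mutant pools lay below all wild-type pools. The difference was -1.03 ± 0.12 (95% interval -1.22 to -0.83), 2.04-fold lower, with adjusted p = 0.0395 in the paired limma fit and 1 without the block, within 0.00863 to 1 over its alternatives. With any 1 pair left out the difference was -1.09 to -0.97 and did not pass. Its values lay below the array median on all 6 arrays. In mutant pools 1 and 2 they also lay below the lower quartile of the array, 4.80 and 5.59. With no signal over background given the fold is imprecise.

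Of the 10, 1 passed lower and 0 higher, against 0.132% and 0.0165% of all genes. In all 3 pairs 7 were lower, against 9.03% of all genes. The median gene differed by -0.20, and the medians in pairs 1 to 3 were -0.21, -0.24 and -0.22. Vtn, the adhesive glycoprotein vitronectin, measured 6.80, 8.59 and 8.23 in wild type and 6.36, 7.49 and 7.03 in the mutant (-0.91 ± 0.41, adjusted p = 0.281). The gap was wider in pairs 2 and 3 than in pair 1, and its second probe set differed by -0.06, -1.08 and -0.80. Heyl, a Notch target of mural cells, measured 6.73, 8.43 and 7.61 against 6.29, 7.80 and 7.21 (-0.49 ± 0.13, adjusted p = 0.240).

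Mcam, the adhesion molecule CD146 of pericytes and endothelium, differed by -0.80, -0.51 and -0.14. Ndufa4l2, a mitochondrial protein gene of pericytes, differed by -0.23, -0.14 and -0.22, and Gja4, the connexin 37 gene of arterial vessels, by -0.01, -0.23 and -0.38. Kcnj8, whose channel pairs with the Abcc9 subunit, differed by -0.19, -0.06 and -0.21. Foxs1, a forkhead factor of mural cells, was at 0 in pair 1 and differed by -0.25 and -0.22 in the others. Anpep (0.11) and Cox4i2 (0.04) had means above 0.

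**Figure D4:**
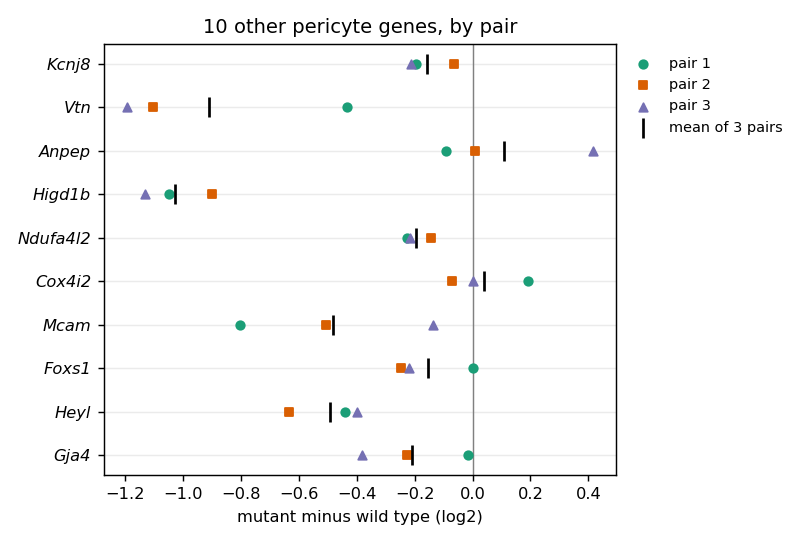
Difference between mutant and wild type (log2, horizontal axis) in each pair of arrays for the 10 other pericyte genes, with the mean as a black bar. Higd1b lies near -1 in all 3 pairs (-1.05, -0.90 and -1.13), and Vtn lies near it in pairs 2 and 3 but at -0.43 in pair 1.

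A further 10 endothelial genes outside the 36, also listed with earlier results known, had a median difference below 0. Of these 10, 7 had a mean difference below 0 and 4 were lower in all 3 pairs, against 48.7% and 9.03% of all genes. The median gene differed by -0.13. Rasip1, a Ras-binding protein needed for vessel lumens, differed by -1.61, -0.30 and -0.03, so its mean of -0.65 rested on pair 1. Icam2, an endothelial adhesion molecule, differed by -0.18, -0.10 and -0.27. Adgrf5, an adhesion G protein-coupled receptor, differed by -0.15, -0.14 and -0.02, and Clec14a, an endothelial C-type lectin, by -0.11, -0.10 and -0.32. Itm2a (0.08) and Ecscr (0.08) had means above 0. None passed, and 1 of 10 was lower at an unadjusted p under 0.05, against 3.31% of all genes.

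Genes of vessel signalling were divided between lower and higher means. Of 41 ligands, receptors and transcription factors outside the 36, 0 passed, against 0.148% of all genes. A mean difference below 0 was found in 22, against 48.7% of all genes, and the median gene differed by -0.02. In all 3 pairs 8 were lower and 7 higher, against 9.03% and 12.9% of all genes. At an unadjusted p under 0.05, 5 of the 41 were lower and 0 higher, against 3.31% and 4.04% of all genes. Heyl, which is in the pericyte set too, had the smallest p, followed by Ackr3, a scavenging chemokine receptor (-0.36 ± 0.16, adjusted p = 0.430). Tgfbr2, a receptor of the transforming growth factor beta family, differed by -0.04 ± 0.08, and Foxc1, a forkhead factor of vessels and mesenchyme, by -0.18 ± 0.24. The main growth factor gene Vegfa differed by -0.09 ± 0.09. Its second, less expressed probe set differed by -2.02, -0.23 and -0.81 (mean -1.02 ± 0.92, adjusted p = 0.611), so the 2 probe sets of Vegfa disagree in size. Angpt1, the activating ligand of Tek, differed by -0.10 ± 0.15, and the Notch ligand gene Dll4 of growing vessels by -0.18 ± 0.09. Without pair 3 the median gene of the 41 differed by -0.10.

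Markers of the other cells in the tissue differed by other amounts, and their part in the vessel values was not tested. For comparison with the counts below, 0.132% of all genes passed lower and 48.7% had a mean difference below 0. The median gene differed by -1.40 among 5 marginal cell markers, of which 3 passed lower. It differed by -0.73 among 5 intermediate cell markers, of which 0 passed, and by -0.72 among 3 basal cell markers, of which 1 passed lower. The summed level of the marginal cell markers was 12.99 to 13.90 (log2) in wild type and 11.40 to 12.44 in the mutant. That of the 27 endothelial genes was 12.38 to 13.46 and 12.09 to 13.40, and that of the 9 mural genes 11.81 to 12.56 and 11.75 to 12.61. Of the 8 fibroblast and fibrocyte markers 2 had a mean below 0 and the median gene differed by 0.08, with summed levels of 14.43 to 15.42 and 14.67 to 15.52. Of the 5 macrophage markers 1 had a mean below 0 and the median gene differed by 0.13, with 11.87 to 12.39 and 11.87 to 12.70. Of the 4 lymphatic markers 1 had a mean below 0 (summed levels 8.35 to 9.41 and 8.87 to 9.65), and of the 9 skeletal muscle markers 6 did (8.57 to 9.57 and 8.73 to 9.52). The 2 erythroid markers measured, Alas2 and Hba-a1, were both below 0 in mean difference, with -0.16, -0.91 and -0.83 for Alas2 in the 3 pairs.

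In 35 of the 36 genes the pairs differed from each other more than the genotypes did. After subtraction of each array's median, the range between the 3 pair means exceeded the genotype difference in 26 of 27 endothelial genes and 9 of 9 mural genes. The same count was not made over all genes, so it shows nothing particular to these genes. The median range was 0.59 for endothelial and 0.35 for mural genes. Slco1c1 had the widest range of the 36 genes (2.51), followed by Pecam1 (1.57), Eng (1.44) and Tie1 (1.39), and in these 4 genes pool 1 of both genotypes was the lowest. Mfsd2a (0.07), Vwf (0.14) and Esm1 (0.14) had the narrowest. The pairs also differed in array median and in the Gapdh gap, as given above, and the part of these in the ranges was not tested.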

How the data were processed

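Each array has 1 deposited value per probe set on the log2 scale. The authors used RMA, as the submitters' processing notes state without version or settings. The scale was inferred from the range, 2.33 to 14.6, and the deposited log2 values were not altered. Of 45101 probe sets, 64 controls were left out; of 45037 tested, 34945 had 1 symbol in the platform annotation, 932 several and 9160 none.

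Genotypes were compared with limma 3.58.1 under R 4.3.3 (lmFit and eBayes, two-sided), with the replicate number as a block, since the comparison is paired by that number, and Benjamini-Hochberg adjustment over all 45037 probe sets at 0.05. The pairing comes from the numbers in the labels. Across probe sets, the deviation of an array from its genotype's mean correlated at 0.879, 0.818 and 0.746 within pairs 1 to 3, and at most at 0.119 between arrays of different numbers. In pair 1, 34.2% of probe sets were equal on both arrays; whether each pair was normalized apart, which would raise these correlations, was not tested. Nothing says that the pools are separate litters, so p-values reflect the spread among these 6 samples, which may be technical. Precision is limited by the number of arrays: 3 against 3 allow no exact permutation p below 0.1. On simulated data of 45037 probe sets with noise as in the paired fit, 81 of 100 probe sets given a log2 change of 1 were recovered. No change smaller than 1 was simulated. The largest difference among the members was -0.42 (Cldn5), so this gives no recovery rate for differences of their size.

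The members and all lists were chosen with earlier results of these data known. Every member may be named; from other lists the rule took genes past the threshold or, failing that, the 2 highest in mean and the 2 with the smallest p, and genes named beyond that were picked for their roles or after their values were seen. Of the listed genes outside the members, 6 found no probe set of their own symbol and stay out, and 1 (Adgrf5) was matched through an older symbol. Lists are described by counts and medians, with no test. Alternatives were the fit without the block, quantile normalization, median centring, averaging all probe sets of a gene, dropping the _x_at and _s_at classes, a mean of at least 6, eBayes with trend and robust options, and leaving out each pair.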

Additional observations from a re-analysis of the deposited data

How the results depend on the processing

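None of the 36 genes passed under any alternative. The median endothelial difference kept its sign throughout and was -0.18 to -0.11 with 1 pair left out. The number of endothelial genes lower in all pairs was 10 to 19 there, where only 2 pairs had to be lower. The median mural difference was -0.10 with a mean of at least 6, which left 7 of the 9 genes. Mural genes lower in all pairs numbered 3 after quantile normalization, 3 after median centring, 1 with the mean of probe sets and 1 to 4 with 1 pair left out. The median of other pericyte genes was -0.27 to -0.16 with 1 pair left out, and that of vessel signalling genes -0.10 to 0.0034. Without the replicate block 3 probe sets passed in place of 42, and the unadjusted count among the 36 went from 6 to 0. With 1 pair left out 0 to 7 passed, with 1 residual degree of freedom. Of 395 values of single genes under the alternatives, 378 kept sign and side of the threshold, 4 lost the call (all Higd1b) and 13 changed sign. Mfsd2a changed sign after median centring (0.0059) and quantile normalization (0.00055). The other sign changes came with 1 pair left out, over which the values ran from -0.26 to 0.063 for Abcb1a, -0.17 to 0.064 for Angpt2, -0.22 to 0.14 for Cdh5, -0.068 to 0.040 for Cnn1, -0.17 to 0.041 for Eng, -0.18 to 0.066 for Erg, -0.13 to 0.040 for Flt1, -0.062 to 0.068 for Mfsd2a, -0.068 to 0.19 for Notch3 and -0.49 to 0.12 for Tie1. Higd1b differed by -1.09 to -0.97 with 1 pair left out, and lost its call without the block (adjusted p = 1). It has a mean under 6 and gave no value with that filter. Apart from the shift of pair 1 ties under median centring, the cause of these changes was not tested. Signal over background is not given in the files, which limits statements on Esm1, Cnn1, Myh11 and Higd1b.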
